A study of Homo sapiens with 12 samples.

Results

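GNG5 encodes gamma-5, 1 of the small subunits that pair with a beta subunit in heterotrimeric G proteins. It was examined together with 6 other genes for gamma and beta subunits, namely GNG10, GNG11, GNG12, GNB1, GNB2 and GNB4. Members were taken by gene symbol from the annotation of the array, with the brightest transcript cluster (the set of probes for 1 transcribed locus) of each gene. Of the 7 genes, 6 had a cluster that carried their symbol alone, out of 22411 genes named on the array. All 6 lay above the limit set on low signals, a mean log2 signal of 4.54, which 14940 genes passed. The 7th, GNG10, shares its only cluster with DNAJC25 and with the readthrough transcript of both genes, so that no signal could be given to GNG10 itself. GNG5 was chosen by its own log2 difference between archetype and control arrays, so its values are given as a description with no test. The other genes were chosen as its relatives, with earlier results of these data known.

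MDA-MB-231, an established cell line from a triple-negative breast tumour, was profiled on 12 arrays in 4 groups of 3. Cells had been transfected 48 h earlier, at 50 nM, with a mimic of a microRNA or with a control oligonucleotide. The archetype group received a mimic of miR-183-5p, the minus2 group a custom miRVana mimic of miR-183-5p|-2|-2|, the plus2 group a custom miRVana mimic of miR-183-5p|+2|+2|, and the control group the Negative Control #1. IsomiRs are forms of 1 microRNA whose ends lie a few nucleotides away from the annotated ones. For these genes the question is whether a low GNG5 signal came with different signals of the partner subunits. All groups share the cell line, the transfection reagent (Lipofectamine RNAiMAX) and the dose, the amount of mimic inside the cells was not measured, and the labels name no separate cultures behind replicate arrays. The p-values therefore rest on a spread that may be technical.

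The sequences of the mimics are shown because the shift of the ends moves the seed, the stretch that pairs with a target transcript. Each is written as RNA from 5′ to 3′, with the seed (nucleotides 2 to 8) in capitals. The archetype sequence is that of hsa-miR-183-5p in RefSeq, at chr7:129774967-129774988 on the minus strand of GRCh38.p14, within the MIR183 gene, and the others are those in the labels.
archetype: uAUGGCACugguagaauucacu
minus2: uGUAUGGCacugguagaauuca
plus2: uGGCACUGguagaauucacugu
Each mimic is 22 nucleotides long and each isomiR shares 20 of them with the archetype, whereas the 3 seeds differ.

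As background, a receptor at the cell surface makes the alpha subunit of a G protein exchange GDP for GTP, after which alpha and the tightly joined beta-gamma dimer act on separate targets. Beta subunits fold into a propeller with the help of the chaperonin CCT, and most beta subunits are stable only with a gamma partner. Gamma subunits carry a lipid at their C terminus, farnesyl on gamma-11 and geranylgeranyl on gamma-5, gamma-10 and gamma-12, which holds the dimer at the membrane. In breast cancer cells, receptors for lysophosphatidic acid, thrombin and chemokines signal partly through beta-gamma.

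**Figure D1:**
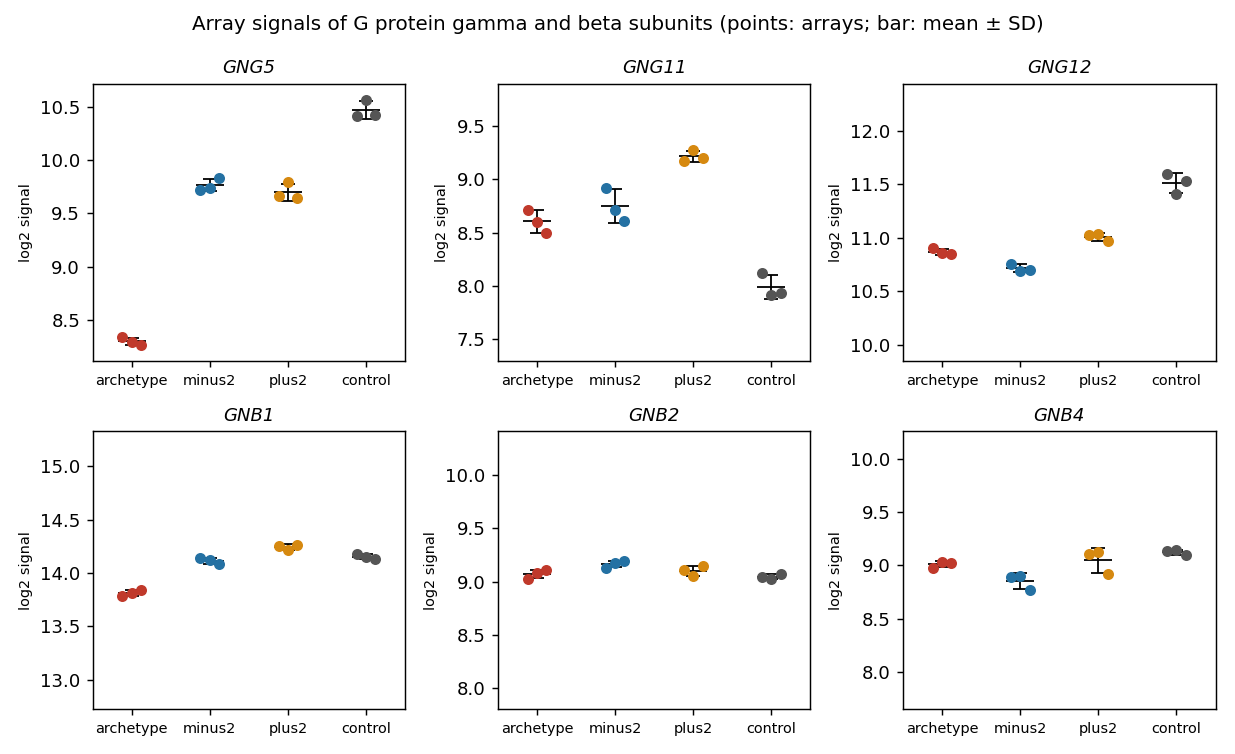
Log2 signal (y axis) of GNG5 and of 5 partner subunits on each of 12 arrays, by group (x axis), with 1 point for each array and a bar for the mean ± SD of 3 arrays. Every panel spans the same range of log2 units. GNG5 lay between 8.27 and 8.34 with the archetype and between 10.41 and 10.56 in control, GNG11 was higher and GNG12 lower with every mimic than in control, and GNB1 was lowest with the archetype.

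GNG5 was lower with every mimic than in control, and by far lowest with the archetype. Its log2 signals were 8.34, 8.29 and 8.27 with the archetype, 9.72, 9.74 and 9.83 with minus2, 9.66, 9.79 and 9.65 with plus2, and 10.41, 10.56 and 10.42 in control. The 3 archetype arrays lay below all others, the isomiR arrays overlapped each other, and the control arrays lay above all mimic arrays. The difference from control was -2.17 ± 0.06 log2 units (SE, n = 3 each) with the archetype, where the signal was 0.223 times that of control and the fall ranked 1 among 14940 genes. Because GNG5 was chosen by this same difference, the choice favours such a rank. With minus2 the difference was -0.70 ± 0.06, or 0.615 times the control signal, and with plus2 it was -0.77 ± 0.06, or 0.588 times. Between plus2 and minus2 the difference was -0.06 ± 0.06, about the size of its standard error. In bulk RNA, fewer cells with the transcript and less transcript in each cell cannot be told apart.

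GNG5B, a near-identical copy of GNG5 on the X chromosome, followed the same pattern, and the probes of the copies may not separate their transcripts. Its log2 signals were 6.01, 6.39 and 5.83 with the archetype, 7.20, 7.37 and 7.60 with minus2, 7.37, 7.005 and 7.29 with plus2, and 8.16, 8.26 and 7.93 in control. The archetype arrays lay below and the control arrays above all others, with minus2 and plus2 overlapping, at differences from control of -2.04 ± 0.15, -0.72 ± 0.15 and -0.89 ± 0.15 for archetype, minus2 and plus2. As with GNG5, these differences are given with no test.

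Among the partner subunits, 3 of 5 with the archetype, 4 of 5 with minus2 and 2 of 5 with plus2 differed from control at an adjusted p below 0.05 (limma with Benjamini-Hochberg adjustment over all 14940 genes). Of all genes tested, 24.6% passed for archetype, 29.4% for minus2 and 33.6% for plus2 arrays, so that calls were common in these comparisons. The 3 comparisons share the control arrays. GNG11 rose and GNG12 fell with all mimics, GNB1 fell with the archetype and GNB4 with minus2, and GNB2 passed with minus2 alone, by a small margin.

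GNG11, a gamma subunit with a farnesyl anchor, was the partner that rose with every mimic. On single arrays its log2 signal was 8.71, 8.60 and 8.50 with the archetype, 8.92, 8.71 and 8.61 with minus2, 9.17, 9.27 and 9.20 with plus2, and 8.12, 7.92 and 7.93 in control. All mimic arrays lay above all control arrays, and the plus2 arrays lay above the archetype and minus2 arrays. The rise was 0.61 ± 0.08 log2 units with the archetype (adjusted p = 0.000251, limma), 0.76 ± 0.08 with minus2 (adjusted p = 4.71e-05) and 1.22 ± 0.08 with plus2 (adjusted p = 7.57e-07), which is 1.53, 1.69 and 2.33 times the signal in control. Plus2 exceeded the archetype by 0.61 ± 0.08 (adjusted p = 0.000269) and minus2 by 0.47 ± 0.08 (adjusted p = 0.00097). Between minus2 and the archetype the difference was 0.14 ± 0.08 with a 95% interval from -0.04 to 0.33, and it did not pass (adjusted p = 0.279).

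GNG12, a widely expressed gamma subunit of the geranylgeranylated kind, was lower with every mimic. The arrays gave log2 signals of 10.90, 10.86 and 10.85 with the archetype, 10.76, 10.69 and 10.70 with minus2, 11.02, 11.04 and 10.97 with plus2, and 11.60, 11.41 and 11.53 in control. The groups did not overlap, and the order from low to high was minus2, archetype, plus2 and control. GNG12 fell by 0.64 ± 0.05 log2 units with the archetype (adjusted p = 2.84e-06, limma), by 0.80 ± 0.05 with minus2 (adjusted p = 5.96e-07) and by 0.50 ± 0.05 with plus2 (adjusted p = 1.29e-05). The group with the lowest signal was minus2 for GNG12 and the archetype for GNG5. Plus2 exceeded minus2 by 0.29 ± 0.05 (adjusted p = 0.000591), and its difference from the archetype of 0.14 ± 0.05 did not pass (adjusted p = 0.0551). The difference of -0.15 ± 0.05 between minus2 and the archetype passed narrowly (adjusted p = 0.0444, limma). That call was lost without control replicate 3, any 1 of the archetype or minus2 replicates, or plus2 replicate 1 or 2, at adjusted p between 0.0526 and 0.13, and with no filter on low signals (adjusted p = 0.077).

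The cluster shared by GNG10, DNAJC25 and their readthrough transcript was higher with every mimic. Its arrays read 8.12, 8.15 and 8.18 with the archetype, 8.12, 8.14 and 8.08 with minus2, 8.07, 8.07 and 8.08 with plus2, and 7.89, 7.93 and 7.95 in control, in log2 units. All mimic arrays lay above all control arrays. When this cluster was added to the fit, its differences from control were 0.22 ± 0.04 (adjusted p = 0.00109, limma), 0.19 ± 0.04 (adjusted p = 0.00282) and 0.15 ± 0.04 (adjusted p = 0.00946) for archetype, minus2 and plus2. DNAJC25 encodes a membrane-bound J-domain protein, and which of the transcripts gave the difference cannot be told apart.

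Of the beta subunits, GNB1, the ubiquitous beta-1 chain, fell with the archetype. The log2 signals were 13.79, 13.82 and 13.85 with the archetype, 14.14, 14.12 and 14.08 with minus2, 14.25, 14.22 and 14.27 with plus2, and 14.18, 14.15 and 14.13 in control. The archetype arrays lay below all others, the plus2 arrays above all others, and minus2 overlapped with control. GNB1 fell by 0.34 ± 0.04 log2 units with the archetype (adjusted p = 4.79e-05, limma), to 0.791 times the control signal. It did not pass with minus2 (-0.04 ± 0.04, 95% interval from -0.12 to 0.04, adjusted p = 0.476) or plus2 (0.09 ± 0.04, 95% interval from 0.01 to 0.17, adjusted p = 0.0903). The difference between mimics itself passed, at 0.30 ± 0.04 for minus2 over the archetype (adjusted p = 0.000126) and 0.43 ± 0.04 for plus2 over the archetype (adjusted p = 9.92e-06). Plus2 also exceeded minus2 by 0.13 ± 0.04 (adjusted p = 0.016), a call lost without minus2 replicate 3 (adjusted p = 0.0658). That call was also lost when only the 2 groups were fitted (adjusted p = 0.0621). The archetype group had the lowest signals of both GNB1 and GNG5, at log2 differences from control of -0.34 and -2.17.

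GNB2 and GNB4, the chains beta-2 and beta-4, showed small differences. GNB2 log2 signals were 9.03, 9.08 and 9.11 with the archetype, 9.13, 9.17 and 9.19 with minus2, 9.10, 9.06 and 9.15 with plus2, and 9.04, 9.03 and 9.07 in control. Archetype and plus2 arrays overlapped with control, whereas the minus2 arrays lay above it by 0.12 ± 0.04 (adjusted p = 0.0497, limma). That call was lost when arrays were centred on their medians (adjusted p = 0.193), after quantile normalisation (adjusted p = 0.195) and when any 1 of 10 arrays was left out, namely all control, archetype and minus2 replicates and plus2 replicate 1 (adjusted p between 0.0522 and 0.148). It was also lost with no filter on low signals (adjusted p = 0.0876) and when only the 2 groups were fitted (adjusted p = 0.0632). For the archetype the GNB2 difference was 0.02 ± 0.04 with a 95% interval from -0.07 to 0.11, and for plus2 0.06 ± 0.04 with an interval from -0.03 to 0.15.

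GNB4 log2 signals were 8.97, 9.03 and 9.02 with the archetype, 8.89, 8.90 and 8.77 with minus2, 9.11, 9.12 and 8.91 with plus2, and 9.13, 9.14 and 9.10 in control. The minus2 arrays lay below all others, and plus2 replicate 3 stood below its group. GNB4 fell by 0.27 ± 0.06 log2 units with minus2 (adjusted p = 0.00451, limma), while the archetype (-0.11 ± 0.06, adjusted p = 0.195) and plus2 (-0.07 ± 0.06, adjusted p = 0.378) did not pass. Plus2 exceeded minus2 by 0.20 ± 0.06 (adjusted p = 0.0199). This last call was lost without minus2 replicate 3 (adjusted p = 0.087), plus2 replicate 1 (adjusted p = 0.0719) or plus2 replicate 2 (adjusted p = 0.075). It was also lost when only the 2 groups were fitted (adjusted p = 0.0765). The difference between minus2 and the archetype, -0.16 ± 0.06, did not pass (adjusted p = 0.08).

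**Figure D2:**
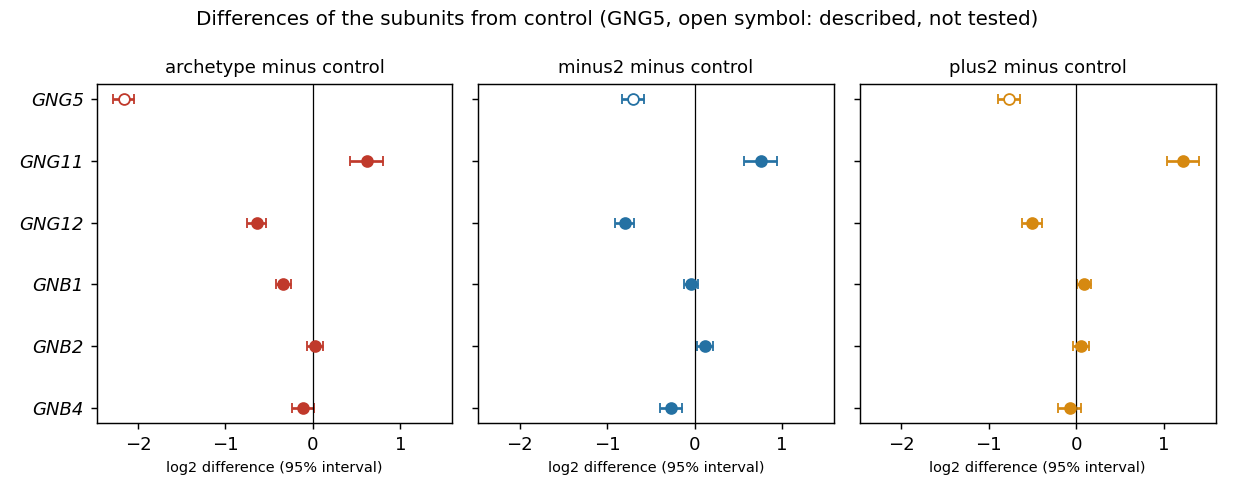
Log2 difference from control (x axis) of each subunit (y axis) with the archetype, minus2 and plus2, as estimate and 95% interval from limma over 12 arrays. The open symbol marks GNG5, which is described and not tested. GNG11 lies right of 0 and GNG12 left of 0 in all panels, and GNB1 lies clearly left of 0 with the archetype, at -0.34.

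Between mimics, 2 of 5 partners differed between minus2 and the archetype (GNB1 and GNG12), 2 of 5 between plus2 and the archetype (GNB1 and GNG11), and 4 of 5 between plus2 and minus2 (GNG11, GNG12, GNB1 and GNB4). The share of all tested genes that passed was 24.3%, 28.9% and 38.7% in these comparisons. GNB1 was higher and GNG12 lower with minus2 than with the archetype, where 12.4% of all genes were called higher and 11.8% lower. GNB1 and GNG11 were both higher with plus2 than with the archetype, where 13.0% were called higher and 15.9% lower. All 4 partners that passed between plus2 and minus2 were higher with plus2, where 17.8% of all genes were called higher and 20.9% lower. For GNG5 the log2 difference was 1.46 ± 0.06 between minus2 and the archetype and 1.40 ± 0.06 between plus2 and the archetype, given here as a description. Among the partners called, the difference from the archetype was at most 0.61, that of GNG11 with plus2.

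The remaining genes for gamma and beta subunits gave few signals. Of 8 other gamma genes (GNG2, GNG3, GNG4, GNG7, GNG8, GNG13, GNGT1 and GNGT2), 3 passed the limit on low signals (GNG4, GNG7 and GNGT1), and limma called 0 of these 3 with any mimic. At an unadjusted p under 0.05 the count was 0 for archetype, 0 for minus2 and 1 for plus2 against control, with no share of all genes computed at that threshold. By adjusted p, 24.6%, 29.4% and 33.6% of all genes were called for archetype, minus2 and plus2. A list of 3 genes is too short to compare with these shares. The mean log2 signals of GNG4, GNG7 and GNGT1 were 4.86, 5.18 and 4.72, not far above the limit on low signals. Of the other beta genes, GNB3 did not pass (-0.06, -0.06 and -0.05 log2 units for archetype, minus2 and plus2, each with SE 0.05) and GNB5 rose with each mimic. GNB3 had a mean log2 signal of 4.96, also not far above the limit on low signals. GNB5 is the divergent beta-5 chain, which pairs with RGS proteins of the R7 kind rather than with a usual gamma subunit. It had log2 signals of 7.80, 7.87 and 7.78 with the archetype, 7.79, 7.77 and 7.85 with minus2, 7.91, 7.94 and 7.94 with plus2, and 7.62, 7.64 and 7.62 in control. All mimic arrays lay above control, by 0.19 ± 0.04 (adjusted p = 0.00394, limma), 0.18 ± 0.04 (adjusted p = 0.00459) and 0.30 ± 0.04 (adjusted p = 0.000102) for archetype, minus2 and plus2.

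Alpha subunits, which hold GTP when active and bind the beta-gamma dimer when inactive, were called in both directions. Of 14 alpha genes tested, 0 rose and 3 fell with the archetype, 3 rose and 2 fell with minus2, and 2 rose and 6 fell with plus2. At an unadjusted p under 0.05, 2 were higher and 3 lower with the archetype, 4 higher and 3 lower with minus2, and 3 higher and 6 lower with plus2. No share of all genes was computed at an unadjusted p, and the shares that follow are for adjusted p. Among all genes, 14.3% rose and 10.3% fell with the archetype, 17.5% rose and 11.9% fell with minus2, and 17.4% rose and 16.2% fell with plus2. The median log2 difference of the list was -0.07, 0.03 and -0.05, against 0.01, 0.01 and 0.00 for all genes.

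GNAQ, the alpha subunit that activates phospholipase C-beta, fell with minus2. Array by array, the log2 signals were 9.87, 9.82 and 9.82 with the archetype, 8.48, 8.52 and 8.60 with minus2, 9.91, 9.97 and 9.85 with plus2, and 9.93, 9.92 and 9.94 in control. The minus2 arrays stood apart from all others. GNAQ fell by 1.40 ± 0.05 log2 units with minus2 (adjusted p = 4.85e-09, limma), and did not pass with the archetype (-0.09 ± 0.05, adjusted p = 0.176) or plus2 (-0.02 ± 0.05, adjusted p = 0.794). The difference between minus2 and the archetype was -1.31 ± 0.05 (adjusted p = 8.36e-09) and that between plus2 and minus2 1.38 ± 0.05 (adjusted p = 2.03e-09).

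GNA11, the close relative of GNAQ, differed from it in pattern. The log2 signals read 10.80, 10.57 and 10.60 with the archetype, 11.29, 11.26 and 11.39 with minus2, 9.89, 9.67 and 9.57 with plus2, and 11.03, 10.88 and 10.88 in control. Minus2 lay above and plus2 below every other group. GNA11 rose by 0.39 ± 0.09 with minus2 (adjusted p = 0.00555, limma) and fell by 1.22 ± 0.09 with plus2 (adjusted p = 9.41e-07), and the difference between plus2 and minus2 was -1.60 ± 0.09 (adjusted p = 8.89e-08). Its fall of 0.27 ± 0.09 with the archetype (adjusted p = 0.0385) was lost without any 1 of the control replicates, archetype replicate 2 or 3, or minus2 replicate 1, at adjusted p between 0.0526 and 0.132. That call was also lost with no filter on low signals (adjusted p = 0.0631). GNAQ was thus lowest with minus2 and GNA11 with plus2.

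GNA12, an alpha subunit that acts on guanine nucleotide exchange factors of RHOA, was also lowest with plus2. It had log2 signals of 8.91, 8.87 and 8.86 with the archetype, 9.26, 9.21 and 9.25 with minus2, 8.11, 7.90 and 8.13 with plus2, and 9.02, 8.94 and 8.92 in control. It rose by 0.28 ± 0.06 with minus2 (adjusted p = 0.00347, limma) and fell by 0.91 ± 0.06 with plus2 (adjusted p = 4.04e-07). With the archetype it did not pass (-0.08 ± 0.06, adjusted p = 0.399). The plus2 arrays lay below and the minus2 arrays above all others.

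Genes that help to assemble G proteins were called in both directions. Of 12 tested, 6 rose and 1 fell with the archetype, 6 rose and 1 fell with minus2, and 3 rose and 3 fell with plus2, at list medians of 0.14, 0.15 and 0.03 log2 units. The shares of all genes that rose and fell were 14.3% and 10.3% with the archetype, 17.5% and 11.9% with minus2, and 17.4% and 16.2% with plus2. RIC8A, a chaperone of newly made alpha subunits, had log2 signals of 9.84, 9.78 and 9.83 with plus2, against 10.45, 10.40 and 10.55 in control, a fall of 0.64 ± 0.05 (adjusted p = 9.41e-07, limma). Its rise of 0.14 ± 0.05 with the archetype (adjusted p = 0.0451) was lost without any 1 of 10 arrays, all but control replicate 3 and plus2 replicate 3 (adjusted p between 0.05 and 0.168). It was also lost after median centring (adjusted p = 0.135), after quantile normalisation (adjusted p = 0.142), with no filter on low signals (adjusted p = 0.0784) and when only the 2 groups were fitted (adjusted p = 0.0915). PDCL, the co-chaperone that joins beta to gamma on the CCT complex, rose by 0.38 ± 0.06 with plus2 (adjusted p = 0.000722). CCT2, a subunit of that complex, fell by 0.70 ± 0.05 with minus2 (adjusted p = 1.14e-06) and by 0.39 ± 0.05 with plus2 (adjusted p = 6.98e-05). Its difference of -0.17 ± 0.05 with the archetype (adjusted p = 0.0242) was lost without control replicate 1 or 3 or archetype replicate 1 or 3, at adjusted p between 0.0501 and 0.0939. CCT2 was the member of this list that fell with minus2, where CCT3, CCT4, CCT5, CCT6A, CCT7 and CCT8, named after their values were seen, made up the 6 rises.

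The lipid of a gamma subunit is attached and trimmed by a short list of enzymes. Of 5 tested, 0 rose and 1 fell with the archetype, 2 rose and 0 fell with minus2, and 0 rose and 2 fell with plus2, at list medians of -0.12, 0.14 and -0.14. These counts of 1, 2 and 2 of 5 stand beside 24.6%, 29.4% and 33.6% of all genes called in either direction. At an unadjusted p under 0.05 there were 0 rises and 2 falls for archetype, 4 rises and 1 fall for minus2, and 0 rises and 3 falls for plus2. The shares above are for adjusted p, and none was computed for unadjusted p, so these last counts have no background to compare with. ICMT, which methylates the prenylated C terminus, rose by 0.27 ± 0.05 with minus2 (adjusted p = 0.00242, limma) and fell by 0.58 ± 0.05 with plus2 (adjusted p = 6.78e-06). The other calls were small. They are the ICMT difference with the archetype (-0.17 ± 0.05), PGGT1B, the beta chain of an enzyme that adds geranylgeranyl, with minus2 (0.26 ± 0.09), and FNTA, the alpha chain of the prenyltransferases, with plus2 (-0.19 ± 0.06). Each of these calls was lost on leaving out single arrays. For ICMT these were any control or archetype replicate (adjusted p between 0.0564 and 0.126). For PGGT1B they were control replicates 2 and 3, archetype replicate 3 and every minus2 replicate (adjusted p between 0.0558 and 0.138), and for FNTA control replicate 1 and plus2 replicates 1 and 2 (adjusted p between 0.0571 and 0.082). With no filter on low signals the ICMT call (adjusted p = 0.0595) and the PGGT1B call (adjusted p = 0.0689) were also lost. The FNTA call was also lost when only the 2 groups were fitted (adjusted p = 0.0651).

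Among effectors of beta-gamma, 8 of 20 listed genes were tested, of which 2 rose and 1 fell with the archetype, 1 rose and 1 fell with minus2, and 2 rose and 2 fell with plus2. The list medians were 0.01, 0.04 and 0.00. Called in either direction were 3, 2 and 4 of 8, where the shares of all genes were 24.6%, 29.4% and 33.6%. GRK2, a kinase that beta-gamma brings to active receptors, had log2 signals of 8.86, 8.71 and 8.58 with the archetype, 8.94, 8.80 and 8.96 with minus2, 7.70, 7.46 and 7.50 with plus2, and 8.80, 8.70 and 8.66 in control. The plus2 arrays lay below all others, and the fall from control was 1.17 ± 0.08 (adjusted p = 8.34e-07, limma). GRK3, its close relative, rose by 0.68 ± 0.06 with plus2 (adjusted p = 5.22e-06) and by 0.28 ± 0.06 with the archetype (adjusted p = 0.00491). PIK3CB, a phosphoinositide kinase that beta-gamma activates, rose by 0.33 ± 0.04 with plus2 (adjusted p = 7.95e-05). Its differences with the archetype and minus2, both 0.13 ± 0.04, passed narrowly and were lost on leaving out single arrays. With the archetype these were control replicates 1 and 3, any archetype replicate and minus2 replicate 1 (adjusted p between 0.0533 and 0.14), and with minus2 control replicates 1 and 3 and any minus2 replicate (adjusted p between 0.0545 and 0.115). Median centring also ended both calls (adjusted p = 0.0724 and 0.0699). So did leaving out the filter on low signals (adjusted p = 0.067 and 0.0545) and fitting only the 2 groups (adjusted p = 0.0811 and 0.0695).

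Regulators that end the signal gave 2 rises and 3 falls of 16 tested genes with the archetype, 4 rises and 3 falls with minus2, and 1 rise and 1 fall with plus2, at list medians of 0.01, 0.07 and -0.01. In either direction these are 5, 7 and 2 of 16, against 24.6%, 29.4% and 33.6% of all genes. GRK5, a receptor kinase that does not need beta-gamma, rose with all mimics, by 0.29 ± 0.07, 0.69 ± 0.07 and 0.44 ± 0.07 for archetype, minus2 and plus2 (adjusted p = 0.00774, 1.75e-05 and 0.000389, limma). RGS4 and RGS10, which speed up GTP hydrolysis by alpha subunits, rose with minus2 by 0.51 ± 0.08 (adjusted p = 0.000533) and 0.44 ± 0.07 (adjusted p = 0.000461).

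Receptors upstream of these proteins gave 1 rise and 2 falls of 16 tested genes with the archetype, 1 rise and 3 falls with minus2, and 6 rises and 2 falls with plus2, at list medians of 0.05, 0.06 and 0.13. Of all genes, 14.3% were called higher and 10.3% lower for archetype, 17.5% and 11.9% for minus2, and 17.4% and 16.2% for plus2. LPAR1, a receptor for lysophosphatidic acid, averaged 8.56 ± 0.08 with the archetype, 8.32 ± 0.04 with minus2, 8.36 ± 0.02 with plus2 and 7.98 ± 0.04 in control (log2 signal, SD, n = 3 each). All mimic arrays lay above control, by 0.58 ± 0.05 (adjusted p = 3.66e-06, limma), 0.35 ± 0.05 (adjusted p = 0.000181) and 0.39 ± 0.05 (adjusted p = 5.72e-05) for archetype, minus2 and plus2. BDKRB1, the inducible bradykinin receptor, fell by 0.59 ± 0.08 with minus2 (adjusted p = 0.00021) and rose by 0.39 ± 0.08 with plus2 (adjusted p = 0.00306). Its difference of -0.24 ± 0.08 with the archetype (adjusted p = 0.0492) was lost without any 1 of 9 arrays, namely all control and archetype replicates, minus2 replicate 2 and plus2 replicates 2 and 3 (adjusted p between 0.0523 and 0.16). That call was also lost with no filter on low signals (adjusted p = 0.0797) and with array weights (adjusted p = 0.0734). A trended, robust variance ended it as well (adjusted p = 0.0503). The chemokine receptor CXCR4 rose by 0.55 ± 0.08 with plus2 (adjusted p = 0.000226); its mean log2 signal was 5.50 ± 0.12 with plus2 and 4.94 ± 0.08 in control (SD, n = 3 each), not far above the limit of 4.54.

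**Figure D3:**
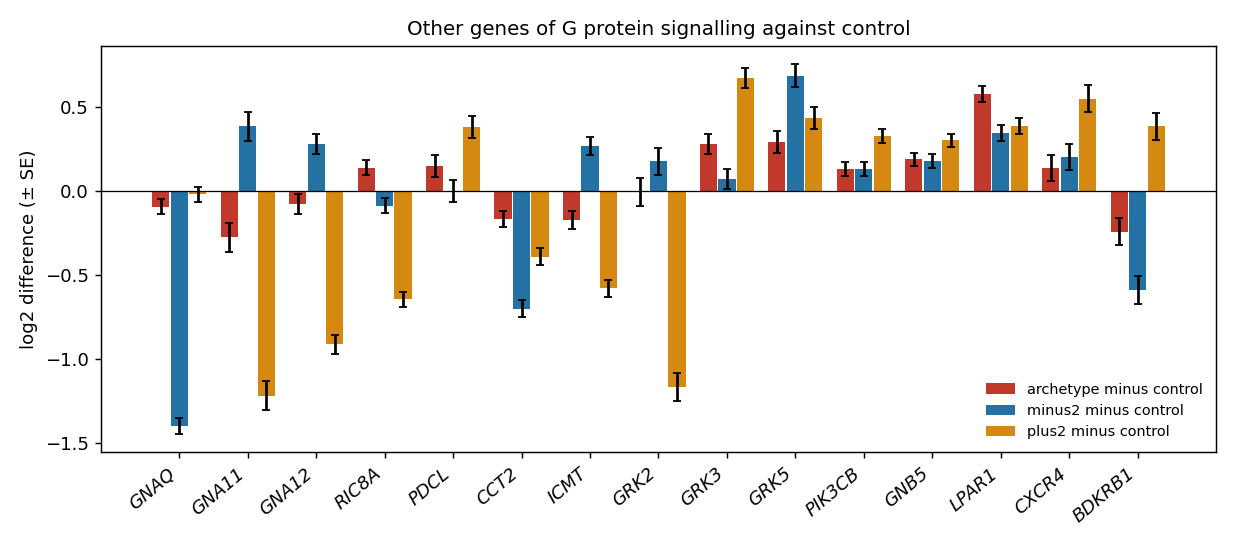
Log2 difference from control (y axis, bars from 0, error bars ± SE from limma) of genes of G protein signalling (x axis) with archetype, minus2 and plus2. GNAQ reaches -1.40 in the minus2 bar, whereas GNA11, GNA12 and GRK2 reach -1.22, -0.91 and -1.17 with plus2.

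The genes whose pattern over the 12 arrays was most like that of GNG5 were sought by the root mean square difference of log2 signals, after the mean of each gene was subtracted. GNG5B was closest, at 0.20 log2 units. The next 5 were TRAM1, of the protein translocation channel of the endoplasmic reticulum (0.26), STC1, the secreted glycoprotein stanniocalcin-1 (0.27), the membrane protein gene TMEM184C (0.34), the plasma membrane calcium pump gene ATP2B4 (0.39) and the mitotic kinase gene PLK1 (0.40). These values describe likeness and are not tests.

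Each of the 5 had its lowest signals with the archetype, which follows from their choice by likeness to GNG5. They differed in how far below control they lay with the isomiRs. STC1 log2 signals averaged 10.71 ± 0.04 with the archetype, 12.66 ± 0.04 with minus2, 12.44 ± 0.06 with plus2 and 12.71 ± 0.03 in control (SD, n = 3 each), so that minus2 and control overlapped. ATP2B4 averaged 10.08 ± 0.12 with the archetype, 10.56 ± 0.16 with minus2, 10.78 ± 0.13 with plus2 and 11.83 ± 0.07 in control, and here both isomiRs lay well below control, as they did for GNG5. Among 14939 genes GNG12 ranked 295 (0.65 log2 units), GNB1 321 (0.66), GNB4 3785 (0.77) and GNB2 6053 (0.79). GNG11 ranked 14714 (1.02), close to the far end. Despite their ranks, the distances of GNG12 and GNB1 from GNG5 were thus closer to that of GNB2 than to that of TRAM1 (0.26).

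**Figure D4:**
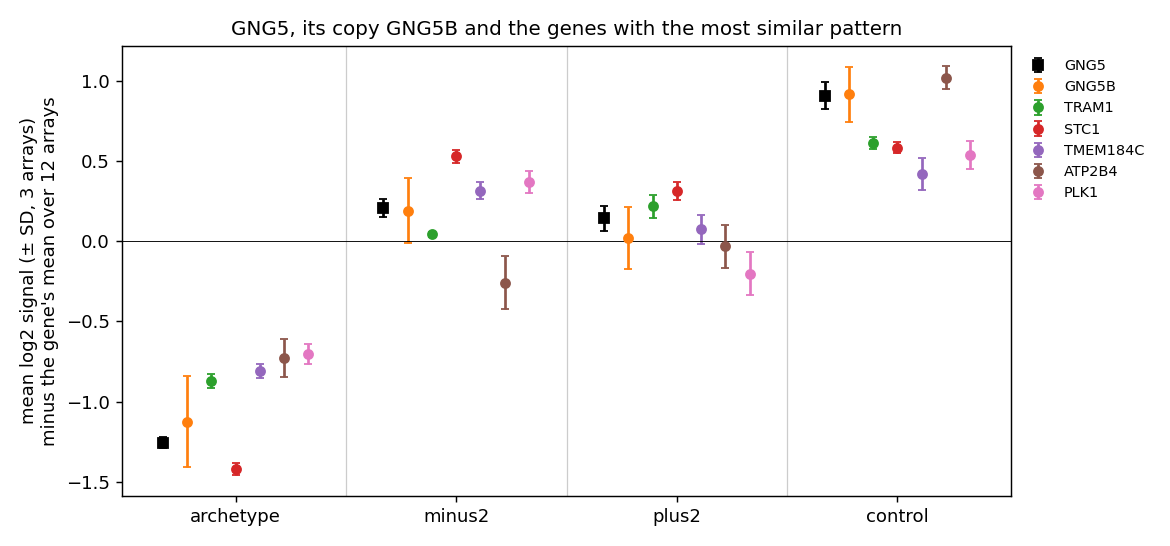
Mean log2 signal (± SD of 3 arrays) of each gene minus its own mean over 12 arrays (y axis) by group (x axis), for GNG5, GNG5B and the 5 genes most like GNG5. All 7 genes are lowest with the archetype, a pattern that the choice by likeness to GNG5 favours. The isomiR groups lie between archetype and control for each of them.

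Quality and identity of the samples were checked over the whole arrays. Replicates correlated with Pearson's r between 0.997 and 0.999 across genes, which are not independent replicates, and no 2 arrays held identical values. All 7 genes listed for this cell line (VIM, CD44, KRT18, KRT19, AXL, CAV1 and SPARC) lay above the limit on low signals. Of these, the keratins KRT18 and KRT19 are also made by luminal cells and do not mark a mesenchymal-like basal state. Of the 8 luminal markers, GATA3, KRT8, CDH1 and ELF3 lay above it as well, while ESR1, PGR, FOXA1 and TFF1 did not. Of the markers of other cells, 5 of 6 measured for white blood cells and 3 of 6 for fibroblasts lay above it, while the leukocyte gene PTPRC and the fibroblast genes DCN, LUM and THY1 did not. The mean log2 signal of the genes listed for the line ranged over 12.24 to 12.28 with the archetype, 12.24 to 12.28 with minus2, 12.07 to 12.12 with plus2 and 12.28 to 12.32 in control. That of the luminal markers ranged over 5.87 to 5.97, 5.89 to 5.90, 6.06 to 6.14 and 5.86 to 5.90 in the same order. For white blood cells it was 6.19 to 6.26, 6.30 to 6.41, 6.15 to 6.27 and 6.29 to 6.42, and for fibroblasts 4.58 to 4.76, 4.68 to 4.70, 4.77 to 4.87 and 4.60 to 4.74. With plus2 the mean of the genes listed for the line lay lower and that of the luminal markers higher than in the other groups. Because the line's list includes KRT18 and KRT19, these means do not cleanly separate the kinds of cell. The part of these lists in the subunit results was not tested.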

How the data were processed

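Signals of 12 arrays (4 groups of 3, 100 ng of RNA each) were taken as deposited. Affymetrix Expression Console 1.4.1 and RMA, a background correction, normalisation and summary of probes, are named per the submitters' processing notes, without role or settings. The deposited values are log2 signals. Their scale is not stated and was read from the range, 1.79 to 19.9. The number of arrays limits the precision.

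Of 67528 transcript clusters, 23781 carried 1 gene symbol, 1543 several and 42204 none. Symbols came from the platform annotation and were updated through RefSeq (GRCh38.p14, names only), in which 22407 of 22411 genes were found. The lowest 33.3% of genes by mean signal were left out. The 4 group means of each gene were modelled together (limma 3.58.1, R 4.3.3; lmFit and eBayes; 8 residual degrees of freedom; two-sided), with Benjamini-Hochberg adjustment over 14940 genes in each of 6 comparisons and a threshold of 0.05. The fit was also run on simulated data with independent noise and few changed genes. In the arrays far more genes were called, so that run does not speak for the calls made here. The partner count was planned over 6 genes and covers 5, because GNG10 has no cluster of its own.

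Members and the 8 gene lists were chosen with earlier results of these data known. Named genes are the members, GNG5B, up to 3 called genes per list with the largest difference from control, and the 5 genes most like GNG5. Alternatives covered scaling, the filter, the groups in the fit, variance moderation, array weights, the replicate number as a block, and each array left out.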

Additional observations from a re-analysis of the deposited data

How the results depend on the processing

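Of 630 values of partner subunits under alternatives, 43 changed their call, and no called value changed sign. Over the 21 alternatives of each, the calls of GNG11 and GNG12 against control, of GNB1 with the archetype and of GNB4 with minus2 were kept. The GNB2 call with minus2 was lost in 14 of 21, and GNB1 with plus2 passed after quantile normalisation (adjusted p = 0.0134, limma) and with a trended, robust variance (adjusted p = 0.0444). GNG12 between plus2 and the archetype passed in 8 of 21. The number of partners called between minus2 and the archetype was 2 and became 1 with no filter on low signals, where more genes were tested, and between 1 and 3 when single arrays were left out. All genes called in that comparison numbered 3629 in the main fit and 3134 with no filter. The number of partners called between plus2 and minus2 was 4 and became 2 when only the 2 groups compared were fitted, and between 2 and 4 with single arrays left out. All genes called there numbered 5787 in the main fit and 4973 with only the 2 groups. The cause of the drop to 2 was not tested. Against control, leaving out single arrays gave 3 partners with the archetype, 3 to 4 with minus2 and 2 with plus2, and between plus2 and the archetype 2 to 3. Leaving out single arrays gave 2926 to 4077 genes called with the archetype, 3557 to 4774 with minus2 and 4312 to 4948 with plus2 against control, 2809 to 4042 between minus2 and the archetype, 3532 to 4228 between plus2 and the archetype, and 4940 to 5728 between plus2 and minus2. Each count of all genes called stayed within 1.5 times its value under the alternatives run. The labels state no pairing by replicate number, so the main fit did not treat the arrays as paired, and a replicate block was run as an alternative. Deviations from group means correlated between -0.04 and 0.27 in 18 same-numbered pairs (median 0.10) and between -0.27 and 0.16 in 36 differently numbered pairs (median -0.03). Of 12 arrays, 9 correlated best with an array of their own number, a hint from the data and not the design. With the replicate block, 3, 4 and 2 partners were called for archetype, minus2 and plus2 against control, 3 for minus2 against the archetype, 3 for plus2 against the archetype and 4 for plus2 against minus2. In the same order, 3925, 4651, 5286, 3850, 4564 and 6013 of all 14940 genes were called with the block. Without it these counts were 3669, 4388, 5020, 3629, 4316 and 5787, so calls rose over all genes as well. No member with a cluster of its own had a second cluster.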
